A study of Arabidopsis thaliana with 48 samples.

Results

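Chaperonins are ring-shaped chaperones that enclose an unfolded protein in a chamber, where it can fold in isolation. In plastids the ring is built of alpha and beta subunits of the CPN60 type and closed by a lid, or co-chaperonin, of which CPN20 is the main one, and Rubisco is the best known protein that depends on it. In mitochondria the ring is built of HSP60 and the lid is CPN10. Many proteins lose their fold at high temperature, and the mitochondrial HSP60 is a classical heat shock protein.

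The 9 genes described here were taken by their gene identifiers from the 33323 genes in the counts of 48 RNA-seq libraries of *Arabidopsis thaliana*. They comprise the plastid ring subunits CPN60A (AT2G28000), CPN60B1 (AT1G55490) and CPN60B2 (AT3G13470), the mitochondrial ring subunits HSP60 (AT3G23990), HSP60-3A (AT3G13860) and HSP60-2 (AT2G33210), the plastid lid CPN20 (AT5G20720), the mitochondrial lid CPN10 (AT1G14980) and CPN10-2 (AT1G23100), a gene of the same lid type. No measured value served as a criterion, but earlier results of these data were known when the genes were chosen. All 9 genes passed the filter on low counts.

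The seedlings were the *hsfa2 hsfa3-1* double mutant, the *hsfa2* and *hsfa3-1* single mutants and the wild type Col, all in the Col-0 background. HSFA2 and HSFA3 are heat shock transcription factors, and the study asked how they act in the memory of heat stress (HS). At an age of 4 d, seedlings received the acclimation treatment (ACC), which consisted of a first exposure to 37 °C lasting 1 h, a recovery at 23 °C lasting 90 min and a second exposure to 44 °C lasting 45 min. They were harvested 4 h, 28 h and 52 h later or without HS. Each of the 16 groups had 3 biological replicates, and the seedlings grew in cycles of 16 h light and 8 h dark. Each mutation was represented by a single allele, whole seedlings were used, and the age and hour at which the seedlings without HS were harvested are not given in the sources used here. Differences between a time point and no HS therefore cannot be told apart from differences in age or hour of harvest, whereas genotypes were compared at the same time point.

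The counts on protein-coding genes summed to between 27561060 and 33861060 read pairs per library, and levels are given as CPM, which are counts scaled to a common, normalised library size. A level of 3 counts lay between 0.0834 and 0.115 CPM. The targeted genes followed the genotype labels after ACC. At 4 h HSFA2 stood at 58.3 to 65.7 CPM in *hsfa2 hsfa3-1* and 43.5 to 72.4 CPM in *hsfa2*, against 1237 to 1589 CPM in Col, and HSFA3 stood at 205 to 221 CPM in *hsfa2 hsfa3-1* and 156 to 172 CPM in *hsfa3-1*, against 893 to 1129 CPM in Col. Transcripts of both genes thus remained countable in their mutants. The leaf markers were abundant in every library, and the root marker PYK10 (AT3G09260) was detected in all of them. Counts come from whole seedlings, in which fewer cells of a type and less RNA per cell cannot be told apart.

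The start regions of the genes were read from the RefSeq TAIR10.1 assembly, because heat shock factors bind repeats of the unit GAA and its reverse complement TTC. A pair of such units, GAANNTTC or TTCNNGAA on either strand, was present in the 250 bases before to 50 bases after the annotated transcript start of 4 of the 9 genes, against 19.1% of 26711 protein-coding genes. Each pair is shown in capitals within 26 bases of its gene's own strand.
CPN60A: gaatgcaaaGAAtcTTCtggatcctt
CPN60B2: gattagctcGAAgtTTCaagagctaa
HSP60-3A: gggccattgGAAaaTTCataatgggc
CPN20: gttagagcgTTCtaGAAcacttgggc
The pairs begin at positions 7 (CPN60A), -18 (CPN60B2), -13 (HSP60-3A) and -37 (CPN20) relative to the annotated start. Their chromosomes are 2 (CPN60A, plus strand), 3 (CPN60B2 plus and HSP60-3A minus strand) and 5 (CPN20, plus strand). HSP60, HSP60-2, CPN60B1, CPN10 and CPN10-2 held no pair in this window. A run of 3 alternating units was present in none of the 9 windows and in 0.49% of all. A match of these letters is a description of the sequence and not a binding site.

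CPN60B1 and CPN60B2 are close relatives, with 88.0% identical bases over their aligned coding sequences and a longest identical stretch of 59 bases. HSP60 and HSP60-2 shared 79.6%, HSP60 and HSP60-3A 70.3%, and CPN60A shared 62.0% with CPN60B1. No window of 150 bases, the length of a read, was identical between any of the 9 genes, so that their counts could be kept apart. The gene models of CPN60B2 and CPN20 overlapped neighbouring genes by 553 and 558 bases, and those of CPN60B1, CPN10 and CPN10-2 by 49, 27 and 29 bases. The strand setting of the counting is not given in the sources used here, and counts in these stretches are uncertain.

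Without HS the genes fell into an order of levels that can be compared after division by transcript length. In Col, CPN20 averaged 495 CPM per kb, with a range of 463 to 517, and CPN60A and CPN60B1 averaged 319 (316 to 323) and 284 (268 to 302) CPM per kb. CPN60B2 at 92.7 (83 to 103), CPN10 at 86.4 (82 to 94.1) and HSP60 at 72.3 (69.1 to 77.1) CPM per kb followed, and the ranges of CPN60B2 and CPN10 overlapped. HSP60-2 averaged 31.8 (30.8 to 32.9), HSP60-3A 16 (14.3 to 18.3) and CPN10-2 11.6 (10.3 to 12.4) CPM per kb, and these ranges did not overlap. Without HS none of the 9 genes differed between a mutant and Col in edgeR's quasi-likelihood test, with 0 genes at an unadjusted p below 0.05 in each mutant and 0 by DESeq2. Over all genes tested, the share that differed was 0.0521% in *hsfa2 hsfa3-1*, 0.0426% in *hsfa2* and 0.0284% in *hsfa3-1*.

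**Figure D1:**
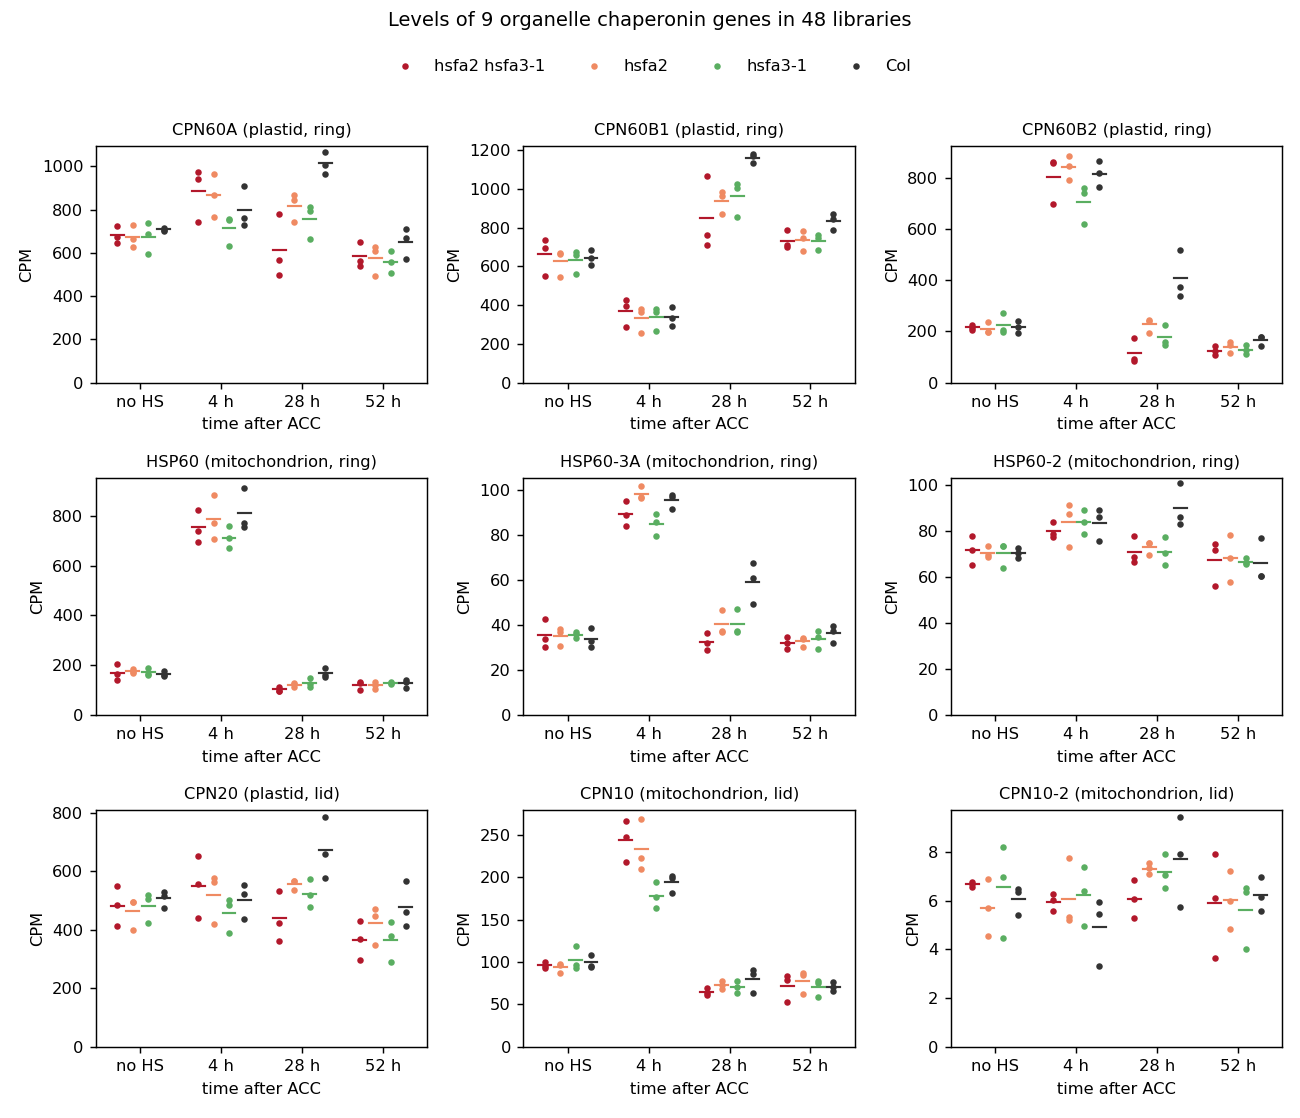
Level in CPM of the 9 genes in every library, by time after ACC, with 1 panel per gene and each axis starting at 0. Points are single libraries (3 per group), short lines are group means, and colours are genotypes. CPN60B2 and HSP60 are highest at 4 h in all 4 genotypes, CPN60B1 is lowest there, and at 28 h the Col libraries of CPN60B2 lie between 339 and 518 CPM, above the 84 to 173 CPM of *hsfa2 hsfa3-1*.

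At 4 h after ACC the beta subunits of the plastid ring moved in opposite directions. CPN60B2 had 695, 862 and 855 CPM at 4 h in *hsfa2 hsfa3-1*, against 207, 213 and 225 CPM without HS. In *hsfa2* it had 846, 885 and 790 CPM at 4 h, against 197, 237 and 197 CPM without HS. It had 617, 739 and 761 CPM at 4 h in *hsfa3-1*, against 197, 273 and 205 CPM without HS. In every mutant the libraries at 4 h lay far above all those without HS, and Col did the same. CPN60B2 had 819, 863 and 764 CPM at 4 h in Col, against 242, 217 and 195 CPM without HS. It rose 3.74-fold, 3.99-fold and 3.13-fold in the double mutant, *hsfa2* and *hsfa3-1* and 3.75-fold in Col, with log2 fold changes of 1.90 ± 0.197, 2.00 ± 0.197, 1.65 ± 0.195 and 1.91 ± 0.197 (SE, n = 3 libraries per group; adjusted p of at most 2.77e-09 in edgeR's quasi-likelihood test).

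CPN60B1, the beta subunit with the higher level without HS, had 286, 397 and 426 CPM at 4 h in *hsfa2 hsfa3-1*, against 552, 696 and 739 CPM without HS. Its Col libraries had 293, 391 and 335 CPM at 4 h, against 609, 686 and 644 CPM without HS. The libraries at 4 h lay below all those without HS in both genotypes, as they did in *hsfa2* (255 to 382, against 544 to 672 CPM) and *hsfa3-1* (269 to 378, against 562 to 677 CPM). The log2 fold changes were -0.84 ± 0.153 in the double mutant, -0.91 ± 0.153 in *hsfa2*, -0.90 ± 0.153 in *hsfa3-1* and -0.93 ± 0.153 in Col (SE, n = 3 per group; adjusted p of at most 9.5e-06, edgeR). CPN60B1 was the only one of the 9 genes that fell at 4 h, and it fell in each genotype.

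The summed beta subunits changed less than either gene. In Col the sum of CPN60B1 and CPN60B2 was 1099 to 1254 CPM at 4 h, against 839 to 903 CPM without HS, while the share of CPN60B2 in this sum, computed from CPM per kb, was 68.1% to 73%, against 22.7% to 27.8%. The mean difference of this share was 45.4 percentage points. The exact two-sided permutation test over libraries gave p = 0.1, the smallest that 3 against 3 libraries allow, and 0.175 after adjustment over the 7 comparisons of shares that were made. The double mutant had a share of 66.1% to 70.2% at 4 h, against 22.8% to 26.7% without HS, close to Col at both times. CPN60A, the alpha subunit, had 742, 972 and 944 CPM at 4 h in the double mutant, against 648, 672 and 723 CPM without HS, and rose by a log2 fold change of 0.38 ± 0.133 there and by 0.36 ± 0.133 in *hsfa2* (SE, n = 3 per group; adjusted p = 0.0115 and 0.0153, edgeR). In *hsfa3-1* and Col its log2 fold changes of 0.09 and 0.18 did not pass the test, and the difference between genotypes did not pass either (adjusted p of at least 0.814).

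**Figure D2:**
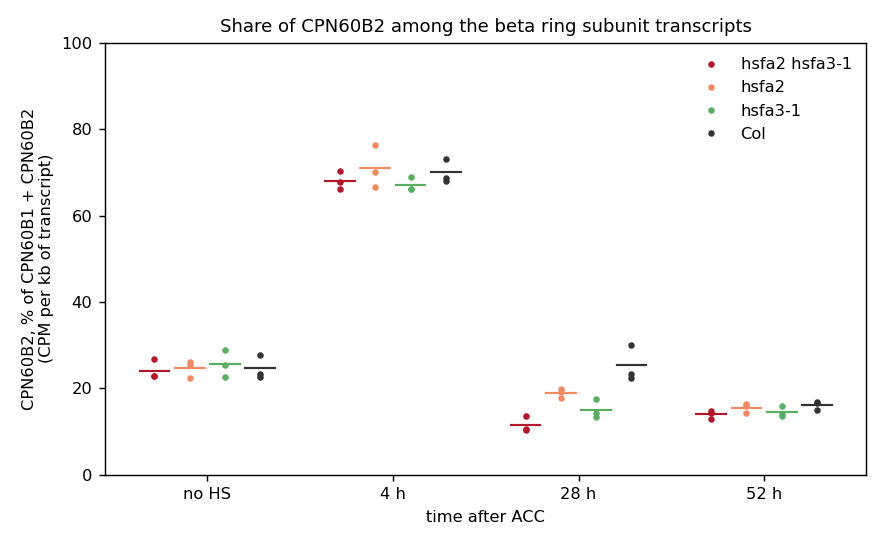
Share of CPN60B2 in the sum of the beta subunits CPN60B1 and CPN60B2, from CPM per kb of transcript, in % on an axis from 0 to 100, by time after ACC. Points are libraries (3 per group), lines are group means and colours are genotypes. All 4 genotypes are near 25% without HS and near 70% at 4 h, and at 28 h the mean is 11.5% in *hsfa2 hsfa3-1*, 18.9% in *hsfa2*, 15% in *hsfa3-1* and 25.3% in Col.

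Of the mitochondrial ring genes, HSP60 had the largest rise of the 9 genes at 4 h. It had 698, 825 and 742 CPM at 4 h in *hsfa2 hsfa3-1*, against 203, 138 and 165 CPM without HS. In Col it had 758, 915 and 771 CPM at 4 h, against 175, 161 and 157 CPM without HS. No library at 4 h came near those without HS, and *hsfa2* (708 to 885, against 167 to 183 CPM) and *hsfa3-1* (674 to 759, against 162 to 188 CPM) were alike in this. HSP60 rose 4.48-fold in the double mutant, 4.52-fold in *hsfa2*, 4.16-fold in *hsfa3-1* and 4.95-fold in Col, with SE of 0.13 to 0.132 on the log2 scale (n = 3 per group; adjusted p of at most 3.36e-16, edgeR). HSP60-3A, a ring gene of lower level, had 89.2, 95.3 and 83.9 CPM at 4 h in the double mutant, against 42.8, 30.2 and 33.6 CPM without HS. In Col it had 91.8, 97.7 and 97 CPM at 4 h, against 38.7, 32.7 and 30 CPM without HS. These groups did not overlap either, and the rise was 2.52-fold in the double mutant, 2.8-fold in *hsfa2*, 2.39-fold in *hsfa3-1* and 2.83-fold in Col (adjusted p of at most 7.6e-11, edgeR).

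HSP60-2, the paralogue closest to HSP60, stayed near its level without HS. It had 75.5, 89.1 and 85.9 CPM at 4 h in Col, against 68.1, 70.2 and 72.8 CPM without HS, and 78.6, 84.1 and 77.4 CPM at 4 h in the double mutant, against 77.6, 65.4 and 71.7 CPM without HS. Its log2 fold change was 0.16 ± 0.109 in the double mutant, which did not pass the test, and 0.25 ± 0.109, 0.26 ± 0.109 and 0.25 ± 0.109 in *hsfa2*, *hsfa3-1* and Col (SE, n = 3 per group; adjusted p = 0.0403, 0.0348 and 0.0418, edgeR). These calls stood close to the threshold and held in 8 of 12 alternatives in *hsfa2*, 9 in *hsfa3-1* and 8 in Col, with adjusted p up to 0.288, 0.101 and 0.162. Without replicate 2 or without replicate 3 of every group they were lost in all 3 genotypes, and in the double mutant the rise passed without replicate 1 (0.25, adjusted p = 0.0248). The share of HSP60 in the 3 mitochondrial ring genes, computed from CPM per kb, was 80% to 82.3% at 4 h in Col, against 59.5% to 61.1% without HS.

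Of the lid genes, CPN10 rose at 4 h, whereas CPN20 and CPN10-2 passed no test at that time. CPN10, the mitochondrial lid, had 266, 248 and 218 CPM at 4 h in *hsfa2 hsfa3-1*, against 99.9, 93.2 and 95.7 CPM without HS. It had 223, 269 and 210 CPM at 4 h in *hsfa2*, against 87.3, 96.4 and 97.8 CPM without HS, and 177, 195 and 164 CPM at 4 h in *hsfa3-1*, against 93.4, 119 and 96.7 CPM without HS. In Col it had 182, 202 and 199 CPM at 4 h, against 108, 94.5 and 95.7 CPM without HS. All libraries at 4 h were higher than all without HS, and the 6 libraries of the genotypes with the *hsfa2* mutation were higher than the other 6 at 4 h. The log2 fold changes were 1.34 ± 0.143 in the double mutant, 1.32 ± 0.143 in *hsfa2*, 0.79 ± 0.142 in *hsfa3-1* and 0.96 ± 0.142 in Col (SE, n = 3 per group; adjusted p of at most 7.26e-06, edgeR). The excess over Col did not pass the test (0.38 ± 0.199 in the double mutant, adjusted p = 0.481, and 0.35 ± 0.199 in *hsfa2*, 0.717), with 95% intervals of -0.03 to 0.78 and -0.05 to 0.76. CPN20, the plastid lid, had 439, 556 and 650 CPM at 4 h in the double mutant, against 413, 484 and 549 CPM without HS, and 435, 522 and 551 CPM in Col, against 530, 475 and 516 CPM without HS. Both pairs of groups overlapped, and no genotype passed the test at 4 h. CPN10-2 stayed between 3.31 and 9.42 CPM in all 48 libraries and passed none of the 33 tests.

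Counted over the 9 genes, 5 rose at 4 h in *hsfa2 hsfa3-1*, 6 in *hsfa2*, 5 in *hsfa3-1* and 5 in Col. Over all 21107 genes tested the share that rose was 34.8%, 34.7%, 34.0% and 35.5% in these genotypes, in the same order. The single gene that fell, CPN60B1, compares with shares of 35.3%, 35.2%, 35.9% and 36.1%. With a log2 fold change above 1 as well, 3 of the 9 genes were induced in Col, against 16.9% of all genes, and they were HSP60, CPN60B2 and HSP60-3A. The median log2 fold change over the 9 genes in Col was 0.25, against -0.05 over all genes tested. Most genes in the seedlings had changed at this time. The summed root markers stood at 282 to 484 CPM at 4 h, against 4134 to 6812 CPM without HS, with PYK10 making up most of the sum, 3 of the 5 lower and 1 higher in Col and none at 0 in any library. The summed leaf markers stood at 10707 to 17202 CPM at 4 h, against 16796 to 26638 CPM without HS, with 3 of the 4 lower in Col and none at 0. The part of these shifts in the results at 4 h was not tested.

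**Figure D3:**
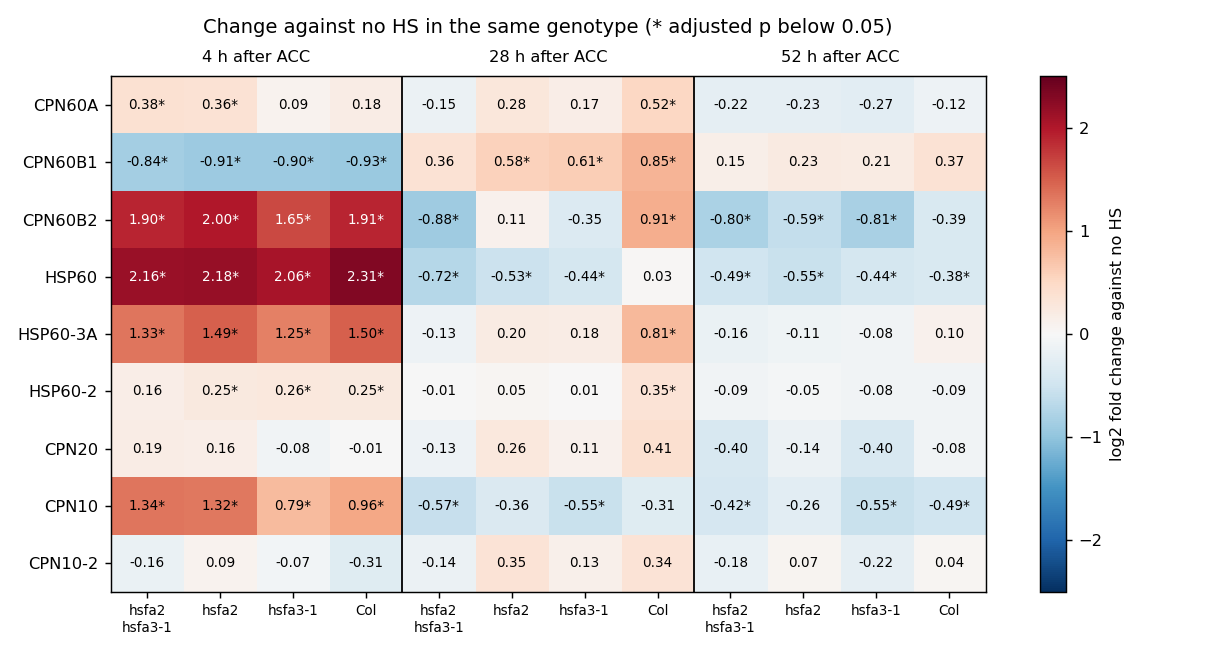
Log2 fold change of the 9 genes against no HS in the same genotype, by time after ACC and genotype. Red is higher and blue lower than without HS, and an asterisk marks an adjusted p below 0.05 in edgeR's quasi-likelihood test. At 4 h the columns of the 4 genotypes look alike, and at 28 h CPN60B2 has 0.91 in Col and -0.88 in *hsfa2 hsfa3-1*.

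At 28 h the plastid ring genes were above their level without HS in Col and CPN60B2 was below it in the double mutant. CPN60B2 had 84, 173 and 93.6 CPM at 28 h in *hsfa2 hsfa3-1*, against 207, 213 and 225 CPM without HS. It had 241, 246 and 193 CPM at 28 h in *hsfa2* and 160, 225 and 146 CPM in *hsfa3-1*. In Col it had 518, 372 and 339 CPM at 28 h, against 242, 217 and 195 CPM without HS. The groups at 28 h and without HS did not overlap in either the double mutant or Col, and they lay on opposite sides. The libraries of each mutant at 28 h were all below those of Col at 28 h, with the double mutant lowest on average, and its replicate 2 fell within the range of *hsfa3-1*.

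The log2 fold change of CPN60B2 against no HS was -0.88 ± 0.192 in *hsfa2 hsfa3-1* (adjusted p = 0.00143), 0.11 ± 0.191 in *hsfa2* (0.75), -0.35 ± 0.191 in *hsfa3-1* (0.186) and 0.91 ± 0.192 in Col (0.000333; SE, n = 3 per group, edgeR). The change in the double mutant minus that in Col was -1.79 ± 0.272 (adjusted p = 0.000146), and its level was 3.51-fold lower than in Col (log2 fold change -1.81 ± 0.196, adjusted p = 4.17e-08). In *hsfa2* and *hsfa3-1* the level at 28 h was 1.81-fold and 2.31-fold lower than in Col (adjusted p = 0.0125 and 0.00085), while the change minus that in Col, at -0.80 ± 0.27 and -1.26 ± 0.27, did not pass the test (adjusted p = 0.189 and 0.114). The double mutant was not tested against the single mutants. CPN60B2 was higher in replicate 1 of Col at 28 h than in the others, and without this library the level in *hsfa2* no longer differed from Col (log2 fold change -0.65, adjusted p = 0.192). Of the 48 libraries, this replicate also had the largest share of read pairs not assigned to a gene (9.38%).

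CPN60B1 was above its level without HS in Col and in both single mutants. It had 712, 1069 and 765 CPM at 28 h in *hsfa2 hsfa3-1*, against 552, 696 and 739 CPM without HS, and these groups overlapped. Its libraries in Col had 1171, 1179 and 1137 CPM at 28 h, against 609, 686 and 644 CPM without HS, with no overlap. The log2 fold changes against no HS were 0.36 ± 0.152 in the double mutant (adjusted p = 0.0908), 0.58 ± 0.153 in *hsfa2* (0.00713), 0.61 ± 0.153 in *hsfa3-1* (0.00428) and 0.85 ± 0.153 in Col (5.13e-05; SE, n = 3 per group, edgeR). The change in the double mutant minus that in Col was -0.49, with a 95% interval of -0.93 to -0.05 (adjusted p = 0.281). Its level at 28 h was 1.37-fold lower in the double mutant than in Col, which did not pass the test (adjusted p = 0.0524). The change of CPN60B1 against no HS and its level in the double mutant thus stood close to the threshold. Its level was called lower there than in Col in 3 of 12 alternatives, with adjusted p up to 0.39 in the others. Among the 3 was the fit without replicate 2 of the double mutant at 28 h (log2 fold change -0.65, adjusted p = 0.00812). That fit was added after seeing the data and leaves out the highest of these libraries, which widens the difference.

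The sum of both beta subunits at 28 h was 796 to 1242 CPM in *hsfa2 hsfa3-1*, 1062 to 1226 CPM in *hsfa2* and 1004 to 1253 CPM in *hsfa3-1*, against 1475 to 1689 CPM in Col. The share of CPN60B2 in this sum was 10.3% to 13.5% in the double mutant, 17.7% to 19.8% in *hsfa2* and 13.4% to 17.5% in *hsfa3-1*, against 22.4% to 30% in Col. The mean share in the double mutant minus that in Col was -13.8 percentage points, with no overlap (exact two-sided permutation test, p = 0.1, the smallest possible, adjusted 0.175). CPN60A, the alpha subunit, had 499, 779 and 566 CPM at 28 h in the double mutant, against 1008, 1068 and 965 CPM in Col. Its groups did not overlap, and its level was 1.65-fold lower in the double mutant (log2 fold change -0.72 ± 0.133, SE, n = 3 per group; adjusted p = 0.000478, edgeR). CPN60A rose against no HS in Col (0.52 ± 0.133, adjusted p = 0.00247) and had -0.15 ± 0.133 in the double mutant. This difference of -0.66 ± 0.188 did not pass the test (adjusted p = 0.071). It passed in 4 of 12 alternatives, with adjusted p up to 0.669 in the others. Among the 4 was the fit without replicate 2 of the double mutant at 28 h (-0.87, adjusted p = 0.00828). That fit was added after seeing the data and leaves out the highest of these libraries, which widens the difference, so it lends no support. The ratio of CPN60A to the summed beta subunits, from CPM per kb, was 0.644 to 0.678 in the double mutant at 28 h, against 0.617 to 0.711 in Col, and these ranges overlapped. Both lay below the ratios without HS, which were 0.763 to 0.881 in the double mutant and 0.808 to 0.872 in Col.

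**Figure D4:**
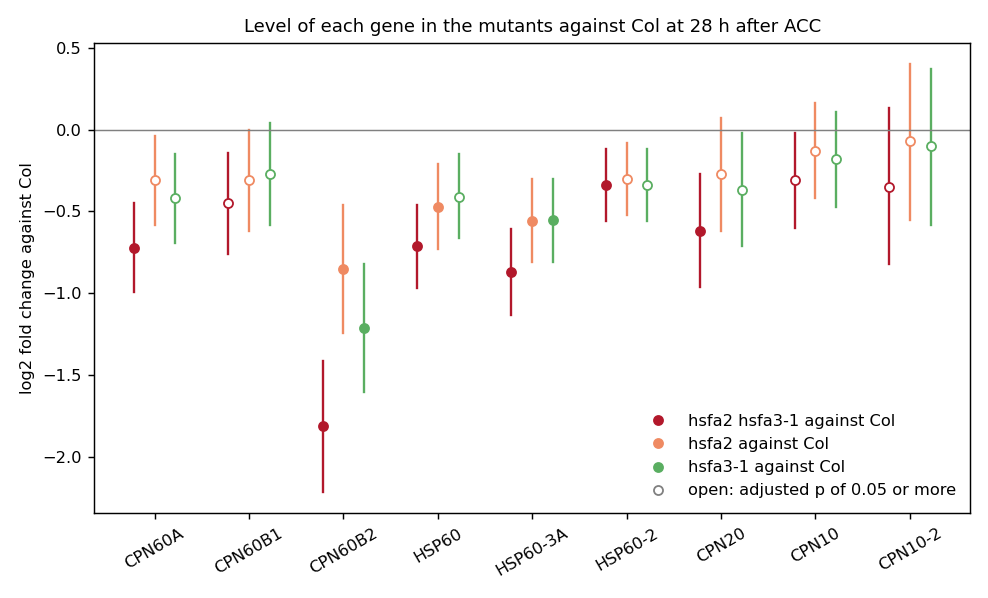
Log2 fold change of the level at 28 h after ACC in each mutant against Col, for the 9 genes. Bars are 95% intervals, filled points passed an adjusted p below 0.05 in edgeR's quasi-likelihood test and open points did not. CPN60B2 lies lowest in each mutant, at -1.81 in *hsfa2 hsfa3-1*, -0.85 in *hsfa2* and -1.21 in *hsfa3-1*, and all 27 points are below 0.

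The mitochondrial ring genes were also lower in the double mutant at 28 h. HSP60 had 96.9, 112 and 97.4 CPM at 28 h in *hsfa2 hsfa3-1*, 129, 123 and 110 CPM in *hsfa2* and 146, 122 and 112 CPM in *hsfa3-1*, against 190, 159 and 153 CPM in Col. All libraries of the mutants were below those of Col. HSP60 had returned to its level without HS in Col (log2 fold change 0.03, with a 95% interval of -0.23 to 0.28), and in the mutants it was below that level, at -0.72 ± 0.127 in *hsfa2 hsfa3-1*, -0.53 ± 0.126 in *hsfa2* and -0.44 ± 0.126 in *hsfa3-1* (SE, n = 3 per group; adjusted p = 0.000138, 0.0033 and 0.0111, edgeR). The change in the double mutant minus that in Col was -0.75 ± 0.178 (adjusted p = 0.0281), and this call was lost without replicate 1 of Col at 28 h (-0.65, adjusted p = 0.139). The level of HSP60 was lower than in Col in the double mutant (-0.71 ± 0.127, adjusted p = 0.000292) and in *hsfa2* (-0.47 ± 0.126, adjusted p = 0.0343, and 0.316 without replicate 1 of Col), and in *hsfa3-1* it did not pass the test (-0.41 ± 0.126, adjusted p = 0.0863).

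HSP60-3A had 31.8, 36.5 and 29 CPM at 28 h in *hsfa2 hsfa3-1*, 46.7, 36.9 and 37.3 CPM in *hsfa2* and 47.3, 37.1 and 36.7 CPM in *hsfa3-1*, against 67.5, 60.9 and 49.3 CPM in Col. The libraries of each mutant lay below all of Col, and the double mutant lay below both single mutants. In Col it was 1.75-fold above no HS (adjusted p = 6.98e-06), whereas the log2 fold change of -0.13 ± 0.126 in the double mutant did not pass the test. The difference between these changes was -0.94 ± 0.179 (SE, n = 3 per group; adjusted p = 0.00324, edgeR). Its level was 1.83-fold lower in the double mutant and 1.47-fold lower in both *hsfa2* and *hsfa3-1* than in Col (adjusted p = 1.61e-05, 0.0131 and 0.0168), and without replicate 1 of Col at 28 h the calls in the single mutants were lost (adjusted p = 0.175 in *hsfa2* and 0.245 in *hsfa3-1*). HSP60-2 had 66.3, 77.8 and 68.6 CPM in the double mutant, against 101, 83.1 and 86.1 CPM in Col, with a log2 fold change of -0.34 ± 0.109 (adjusted p = 0.0394), and without replicate 1 of Col at 28 h this became -0.26 (adjusted p = 0.273).

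Of the lids at 28 h, CPN20 was lower in the double mutant than in Col and CPN10 did not rise. CPN20 had 363, 531 and 423 CPM in *hsfa2 hsfa3-1*, 568, 535 and 567 CPM in *hsfa2* and 517, 573 and 477 CPM in *hsfa3-1*, against 576, 785 and 657 CPM in Col. The double mutant and Col did not overlap, and the level was 1.53-fold lower in the double mutant (log2 fold change -0.62 ± 0.17, SE, n = 3 per group; adjusted p = 0.0171, edgeR). The change against no HS was -0.13 ± 0.169 in the double mutant and 0.41 ± 0.169 in Col, and neither passed the test (adjusted p = 0.612 and 0.0537). The difference between these changes, at -0.54, did not pass either (adjusted p = 0.282, edgeR). The rise in Col passed in only 4 of 12 alternatives. In the others it was not called, with adjusted p up to 0.462, and its log2 fold change went down to 0.23. It passed with the replicate number as a block and without replicate 1 of every group (0.53, adjusted p = 0.00285). It also passed without replicate 1 of Col at 28 h (0.51, adjusted p = 0.0384) and without replicate 2 of the double mutant at 28 h (0.41, adjusted p = 0.0475). The fits without a single library were added after seeing the data. CPN10 had 60.7, 69.7 and 63.6 CPM in the double mutant, against 63.4, 90.6 and 85.9 CPM in Col, and these groups overlapped. Against no HS it fell in the double mutant (-0.57 ± 0.142, adjusted p = 0.00423) and in *hsfa3-1* (-0.55 ± 0.142, adjusted p = 0.00556), and its values of -0.36 in *hsfa2* and -0.31 in Col did not pass the test.

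Counted at 28 h against no HS, 0 of the 9 genes rose in *hsfa2 hsfa3-1*, 1 in *hsfa2*, 1 in *hsfa3-1* and 5 in Col, against 9.80%, 9.81%, 11.6% and 21.4% of all genes tested. In the double mutant 4 of the 9 genes had an unadjusted p below 0.05 in edgeR's test in either direction, and DESeq2 called 3. The number that fell was 3 in *hsfa2 hsfa3-1*, 1 in *hsfa2*, 2 in *hsfa3-1* and 0 in Col, against 10.1%, 7.85%, 11.1% and 16.8%. Without replicate 3 of every group, 1, 0, 1 and 3 genes were called in either direction in these genotypes. In Col 7 genes had an unadjusted p below 0.05 in edgeR's test, and DESeq2 called 6 in either direction. The genes that rose in Col were CPN60A, CPN60B1, CPN60B2, HSP60-3A and HSP60-2, which all belong to rings. Without replicate 1 of Col at 28 h the rise of HSP60-2 was not called (0.27, adjusted p = 0.0892).

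The change at 28 h differed between *hsfa2 hsfa3-1* and Col for 3 of the 9 genes, CPN60B2, HSP60-3A and HSP60, against 1.23% of all genes tested. In *hsfa2* 0 of the 9 genes passed (3 at an unadjusted p below 0.05 in edgeR's test and 0 by DESeq2), against 0.156% of all genes, and in *hsfa3-1* 0 passed (4 unadjusted and 1 by DESeq2), against 0% of all genes. That gene was CPN60B2, with an adjusted p of 0.0127 in DESeq2. Fits without replicate 1, 2 or 3 of every group passed 1, 4 and 0 genes in the double mutant, and CPN60B2 had a difference of -1.51, -2.25 and -1.67 in them. The level at 28 h was lower than in Col for 6 of the 9 genes in *hsfa2 hsfa3-1*, 3 in *hsfa2* and 2 in *hsfa3-1* of them, and no level was higher. Without replicate 1 of Col at 28 h, it was lower for 0 of the 9 genes in *hsfa2* and 1 in *hsfa3-1*. Without replicate 3 of every group it was lower for 3 genes in the double mutant, CPN60B2, HSP60 and HSP60-3A, and for 0 in either single mutant. Over all genes, 9.64%, 2.63% and 1.76% differed in level in these mutants in either direction. The median log2 fold change of level in the double mutant was -0.62 over the 9 genes. The summed leaf markers were 21417 to 23910 CPM in *hsfa2 hsfa3-1* at 28 h, against 19120 to 21775 CPM in Col, with 0 of the 4 at 0 in any library, and the summed root markers were 5155 to 6356 CPM, against 5257 to 6843 CPM. Both pairs of ranges overlapped.

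At 4 h the response of the 9 genes could not be distinguished between genotypes. The change against no HS minus that in Col passed for 0 of the 9 genes in each mutant in edgeR's test, with 0 at an unadjusted p below 0.05 and 0 by DESeq2, against 4.38% of all genes in *hsfa2 hsfa3-1*, 2.61% in *hsfa2* and 0.455% in *hsfa3-1*. For CPN60B2 the 95% interval of this difference in the double mutant was -0.55 to 0.55, for HSP60 -0.51 to 0.22 and for HSP60-3A -0.53 to 0.19. The level at 4 h differed from Col for 0 of the 9 genes in each mutant (1 at an unadjusted p below 0.05 in the double mutant, 0 in each single mutant, and 0 by DESeq2), against 9.20%, 5.78% and 2.26% of all genes. The gene with an unadjusted p below 0.05 was CPN10, at 0.33 ± 0.141.

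At 52 h the ring genes that had risen at 4 h were at or below their level without HS. CPN60B2 had 107, 141 and 124 CPM at 52 h in *hsfa2 hsfa3-1*, against 207, 213 and 225 CPM without HS, and 178, 143 and 176 CPM at 52 h in Col, against 242, 217 and 195 CPM without HS. The groups did not overlap in either genotype. The log2 fold change was -0.80 ± 0.192 in *hsfa2 hsfa3-1*, -0.59 ± 0.191 in *hsfa2* and -0.81 ± 0.192 in *hsfa3-1* (SE, n = 3 per group; adjusted p = 0.00563, 0.041 and 0.00583, edgeR), and -0.39 ± 0.191 in Col did not pass the test (adjusted p = 0.166). HSP60 had 101, 132 and 126 CPM at 52 h in the double mutant, against 203, 138 and 165 CPM without HS. The Col libraries had 130, 108 and 141 CPM at 52 h, against 175, 161 and 157 CPM without HS. It fell in all 4 genotypes, by 0.49 in the double mutant, 0.55 in *hsfa2*, 0.44 in *hsfa3-1* and 0.38 in Col on the log2 scale (adjusted p = 0.00966, 0.0037, 0.0246 and 0.036). CPN10 fell by 0.42 in the double mutant, 0.55 in *hsfa3-1* and 0.49 in Col (adjusted p = 0.0474, 0.0114 and 0.0154), and its log2 fold change of -0.26 in *hsfa2* did not pass the test.

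CPN60B1 had 700, 788 and 712 CPM at 52 h in *hsfa2 hsfa3-1*, against 552, 696 and 739 CPM without HS, and 870, 788 and 843 CPM in Col, against 609, 686 and 644 CPM without HS. The Col groups did not overlap, and the log2 fold change of 0.37 ± 0.152 did not pass the test (SE, n = 3 per group; adjusted p = 0.0985, edgeR). The share of CPN60B2 in the beta subunits was 12.9% to 14.7% in the double mutant and 15% to 16.8% in Col, below the 22.7% to 27.8% of Col without HS. The mean share in Col at 52 h minus that without HS was -8.49 percentage points (exact two-sided permutation test, p = 0.1, the smallest possible, adjusted 0.175).

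Counted at 52 h, 0 of the 9 genes rose in any genotype, against 5.71% of all genes in *hsfa2 hsfa3-1*, 5.89% in *hsfa2*, 4.37% in *hsfa3-1* and 7.75% in Col. The number that fell was 3, 2, 3 and 2 in the same order, against 5.42%, 4.96%, 3.22% and 7.08%. In either direction, 4, 2, 4 and 4 genes had an unadjusted p below 0.05 in edgeR's test, and DESeq2 called 3, 2, 3 and 2. Without replicate 3 of every group, 0 of the 9 genes were called in any genotype at 52 h. The change minus that in Col passed for 0 of the 9 genes in each mutant, with 0 at an unadjusted p below 0.05 and 0 by DESeq2, against 0.118%, 0.0142% and 0% of all genes in the double mutant, *hsfa2* and *hsfa3-1*. The level differed from Col for 0 of the 9 genes in each mutant (2, 0 and 1 at an unadjusted p below 0.05 in edgeR's test, 0 by DESeq2), against 0.611%, 0.166% and 0.0569%.

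Across the 16 group means of log2 CPM, the sets that the members formed followed the organelle only in part. The mitochondrial genes HSP60, HSP60-3A, HSP60-2 and CPN10 correlated with each other, from Pearson r = 0.68 (HSP60-2 with CPN10) to 0.98 (HSP60 with CPN10). The plastid gene CPN60B2 correlated with HSP60-3A (0.97), HSP60 (0.95) and CPN10 (0.93). CPN60A correlated most with the lid CPN20 (0.92), which shares its compartment. CPN60B1 ran against CPN60B2 (-0.77), HSP60 (-0.92) and CPN10 (-0.93). These values describe 16 points that share 4 time points and are given without a test.

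The genes outside the 9 with the highest correlation over the same 16 means were AT5G26710 and the prohibitin gene PHB3 for CPN60B2 (0.992 and 0.979), Hsp70-15 and AT3G27570 for HSP60 (0.997 and 0.997), and FAC1 and La1 for HSP60-3A (0.993 and 0.992). For CPN10 they were J2, a J-domain co-chaperone, and Hsp81.4, a cytosolic Hsp90 (0.993 and 0.992). For CPN20 they were AT1G04880 and TOC75-III, the channel of the plastid outer envelope through which proteins are imported (0.883 and 0.878). They were AT5G01590 and AT1G70200 for CPN60B1 (0.997 and 0.996), AT2G40660 and AT1G50380 for CPN60A (0.920 and 0.911), AT1G16270 and AT3G03920 for HSP60-2 (0.965 and 0.957), and AT1G03320 and HDA3 for CPN10-2 (0.916 and 0.892).

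Related chaperone genes give a scale for these values. Of 10 genes for organelle Hsp70, its nucleotide exchange factors and the disaggregases ClpB, 9 rose and none fell in Col at 4 h in edgeR's test, with 9 of 10 at an unadjusted p below 0.05, and their median log2 fold change was 1.97. Over all genes tested, 35.5% rose and 36.1% fell in this comparison, and the counts of the other lists at 4 h compare with the same shares. The largest rises were those of CLPB3, the plastid disaggregase (4.57 ± 0.288), MTHSC70-2, a mitochondrial Hsp70 (3.96 ± 0.158), CLPB4, the mitochondrial disaggregase (3.94 ± 0.213), and AR192 (AT4G26780), a mitochondrial exchange factor (2.64 ± 0.131). At 28 h the level was lower in *hsfa2 hsfa3-1* than in Col for 8 of the 10 genes, with a median of -0.63 over the 10, CLPB3 at -1.50 ± 0.254 (SE, n = 3 per group; adjusted p = 0.000165, edgeR), the plastid Hsp70 gene cpHsc70-1 at -1.21 ± 0.122 (8.07e-09) and CLPB4 at a 2-fold lower level (0.000833). Of these, cpHsc70-1 was named after its values had been seen. Over all genes tested, 9.64% differed in level between the double mutant and Col at 28 h in either direction. The counts of the other lists at 28 h compare with the same share.

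The 5 remaining organelle chaperonin genes went several ways. At 4 h in Col 2 rose and 1 fell, shares near those over all genes, and the largest changes were those of Cpn60beta4 (AT1G26230), a plastid beta subunit, at -1.38 ± 0.135 (SE, n = 3 per group; adjusted p = 2.85e-11, edgeR), and Cpn60alpha2 (AT5G18820), at 0.48 ± 0.15. At 28 h, 3 of the 5 were lower in the double mutant than in Col, with a median of -0.38 over the 5, and they were AT3G60210, a lid gene of plastids, at -0.95 ± 0.169 (adjusted p = 0.000292), Cpn60alpha2 at -0.51 ± 0.147 (0.0229) and Cpn60beta3 at -0.38 ± 0.109 (0.0212), and without replicate 1 of Col at 28 h only 1 of the 5 was. AT3G60210 and Cpn60beta3 were named after their values had been seen. Of the 9 genes of CCT, the chaperonin of the cytosol, 6 rose and none fell in Col at 4 h in edgeR's test, with 6 of 9 at an unadjusted p below 0.05, led by AT1G24510 (1.13 ± 0.0872) and AT3G03960 (1.01 ± 0.0812), and 7 of the 9 were lower in the double mutant than in Col at 28 h, with a median of -0.42 and log2 fold changes down to -0.50.

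Of 11 genes for Rubisco small subunits and for factors in the assembly and activation of Rubisco, 8 fell and none rose in Col at 4 h in edgeR's test, with 9 of 11 at an unadjusted p below 0.05. The largest falls were those of the small subunit genes RBCS2B (-1.92 ± 0.253) and RBCS1B (-1.83 ± 0.17), of the assembly factor gene AT5G28500 (-1.16 ± 0.142) and of RbcX1 (-1.14 ± 0.17; SE, n = 3 per group). The small subunit genes are close copies of each other, and their single values are uncertain. At 28 h, 2 of the 11 were lower in the double mutant than in Col, or 0 without replicate 1 of Col at 28 h. Over all genes tested, 9.64% differed in either direction in this comparison. The median of the 11 was 0.01, against -0.01 over all genes tested. The median of -0.62 over the 9 organelle chaperonin genes in the same comparison lay next to the -0.63 of organelle Hsp70 and ClpB.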

How the data were processed

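RNA-seq of whole *Arabidopsis thaliana* seedlings was available for 48 libraries in 16 groups of 3. The authors aligned 150-base paired reads with STAR 2.5.1a to TAIR10 and deposited raw counts of read pairs per gene, with no normalisation. The deposited counts hold 33323 genes, of which 26712 were matched as protein-coding. Between 7.20% and 9.38% of the pairs were not assigned to a gene, and these stayed out of library sizes. They were unmapped, lay on several places (1.46% to 2.34% of all pairs), lay on no gene or were ambiguous. Replicate 1 of Col at 28 h had the highest share of unassigned pairs and of pairs on several places. In this library 2.86% of the pairs lay on no gene, against at most 1.84% in any other. Replicates of a group differed by more than sampling noise (chi-square per degree of freedom of 11.9 to 82.7).

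Genes were filtered by filterByExpr, which left 21107, and fitted with edgeR 4.0.16 in R 4.3.3 (TMM normalisation, quasi-likelihood F test, 1 mean per group, 32 residual degrees of freedom). Contrasts compared a time point with no HS in each genotype, a mutant with Col at each time, and the difference between these changes. p-values were adjusted after Benjamini-Hochberg over all genes tested, a gene was called at an adjusted p below 0.05, and SE is the fold change divided by the root of F. Every p that is not called exact comes from this fit, from DESeq2 1.42.0 or, where an alternative is named, from the same edgeR test in that alternative. In simulated counts for Col at 4 h against no HS on 20757 genes, 43 of 50 genes raised by 1 on the log2 scale and 50 of 50 raised by 2 were called. For a difference between changes, 22 of 50 were called at 1 and 14 of 50 at -1, and 50 of 50 at both 2 and -2. The simulation gave every gene the same dispersion, changed few genes, none near the floor, and held no deviation shared by same-numbered replicates. In the data most genes changed at 4 h, so these rates do not give the power of the real tests.

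The members and the gene lists (other organelle chaperonins, cytosolic CCT, organelle Hsp70 and ClpB, Rubisco subunits and assembly factors, and markers of leaf, root and seed storage) were chosen with earlier results of these data known. The named genes were the 9 members, HSFA2 and HSFA3, up to 4 genes of each list with an absolute log2 fold change above 1 in Col at 4 h or else the 2 largest, and the 2 genes most correlated with each member. Summed seed storage markers were 0.338 to 27.8 CPM. Alternatives were DESeq2 size factors, DESeq2, no filter, a stricter filter, all genes in the files, only the genotypes compared, a replicate block and fits without each replicate. The fits without replicate 2 of *hsfa2 hsfa3-1* or replicate 1 of Col at 28 h were added after seeing the data.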

Additional observations from a re-analysis of the deposited data

Results flagged for a closer look

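The response of 3 genes at 28 h after ACC differed between *hsfa2 hsfa3-1* and Col in the test of the difference itself. All 3 build chaperonin rings, as do CPN60A, CPN60B1 and HSP60-2, which did not pass. The change against no HS minus that in Col was -1.79 for CPN60B2, -0.94 for HSP60-3A and -0.75 for HSP60 on the log2 scale. Of 12 alternatives, these calls held in 11, 10 and 8 in the same order, with adjusted p up to 0.21, 0.321 and 0.441. For CPN60B2 the response was opposite in sign, since its level at 28 h was below that without HS in the double mutant and above it in Col. For HSP60-3A the level rose in Col and its change of -0.13 in the double mutant did not pass the test, and for HSP60 the level fell in the double mutant and its change of 0.03 in Col did not pass.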

How the results depend on the processing

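The 297 tests of the 9 genes gave no change of direction in a called value under 12 alternatives. DESeq2 size factors, a stricter filter and all genes in the files moved no call of a gene across the threshold, no filter lost 4, DESeq2 gained 5, and the fit with only the genotypes compared lost 10. In the last, 1 gene was called at 52 h in *hsfa2 hsfa3-1* and 1 in Col, and the level differed for 1 in *hsfa3-1* at 28 h. DESeq2 called a difference in response for 1 gene in *hsfa3-1* at 28 h. Fits without a replicate, with fewer samples, gave the widest ranges of calls. Against no HS these were 1 to 3 genes in *hsfa2 hsfa3-1*, 0 to 2 in *hsfa2*, 0 to 3 in *hsfa3-1* and 3 to 6 in Col at 28 h, and 0 to 3, 0 to 2, 0 to 3 and 0 to 2 at 52 h. The response at 28 h differed for 0 to 4 genes in the double mutant, and the level at 28 h for 3 to 7 genes in the double mutant, 0 to 3 in *hsfa2* and 0 to 2 in *hsfa3-1*. The calls of CPN60B1, CPN60B2, HSP60, HSP60-3A and CPN10 at 4 h held in each genotype under the 12 alternatives. The fit with the replicate number as a block gained 14 calls and lost none. At 28 h it called 4 genes in *hsfa2 hsfa3-1*, 4 in *hsfa2*, 3 in *hsfa3-1* and 7 in Col against no HS, among them CPN20 in Col (0.39, adjusted p = 0.0151), 4, 1 and 1 for the response and 7, 3 and 4 for the level in the mutants, and at 52 h 4, 2, 4 and 3 against no HS. The main fit did not take replicate numbers as pairs. The mean correlation of deviations was 0.262 for libraries of the same number and -0.13 for those of different numbers. Of 360 same-numbered pairs of libraries, 270 had a correlation above 0.1, and 42 of the 48 libraries correlated best with their own number. Same-numbered libraries thus shared deviations, which the main fit and the permutation tests leave out of account.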
